A study of Rattus norvegicus with 6 samples.

Results

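The genes described here run the secretory and membrane trafficking machinery of the cell. They comprised the Rab GTPases and their partners, the SNAREs, syntaxin-binding proteins, synaptotagmins, exocyst subunits, Arf and Arl GTPases, the COPII and COPI coats, the p24 (Tmed) cargo receptors, Myo5b and the MAL proteolipids. Members were chosen by gene symbol, and 157 of the 13728 genes held here matched with at least 10 counts over all libraries. A further 12 genes matched by name with fewer counts, among them Snap25 and Syt1, and were not carried forward. Of the 157 members, 147 reached the minimum of 10 counts in at least 3 of the 6 libraries and were tested.

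The mRNA of rat endometrial epithelial organoids (rEEOs) was compared to that of rat bone marrow mesenchymal stem cells (rBMSCs), with 3 libraries of each. The rEEOs were grown in Matrigel from uterine gland fragments of 5-week-old female SD rats, in a medium holding EGF, FGF10, noggin, A83-01, Y27632, Wnt3a and R-spondin-1. The rBMSCs were purchased, RFP-labeled cells kept in medium with serum. Tissue, medium, matrix and source thus all separate the groups and cannot be told apart. The labels do not state whether replicates were separate cultures, so p-values measure only the spread between these libraries. All 12 epithelial markers checked, Epcam, Cdh1 and Grhl2 among them, were called higher in rEEOs, with a summed level of 2.54 to 3.00 TPM in rBMSCs and 5565 to 6384 TPM in rEEOs. All 11 mesenchymal markers tested were lower in rEEOs, from 41357 to 43689 TPM down to 171 to 298 TPM. Nearly all of that rEEOs level was Vim (171.13, 297.49 and 227.45 TPM), and 6 of the 12 mesenchymal markers held had no counts in rEEOs. Library totals were 10457958 to 15421501 counts. The rEEOs varied more than the rBMSCs, with a median SD of 0.34 against 0.088 on the log2 CPM scale. Of the rEEOs, replicate 1 was most often the extreme library, holding the highest of the 3 values for 64 (43.5%) and the lowest for 61 (41.5%) of the 147 members. The shares over all genes tested were similar, at 43.7% and 44.0%.

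Membrane traffic moves cargo between compartments in vesicles. COPII coats form carriers at the endoplasmic reticulum (ER), COPI coats return proteins from the Golgi, Rab and Arf GTPases mark each membrane, tethers such as the exocyst capture arriving vesicles, and SNAREs drive fusion. Epithelial cells sort cargo to separate apical and basolateral surfaces, and the apical recycling route of Rab11 proteins, the motor myosin Vb, Stx3 and its partner Stxbp2 is a known part of that sorting. Stromal cells are known for heavy export of collagen, which relies on COPII and on the ER exit protein Mia3 (TANGO1).

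A member was called when its absolute log2 fold change passed 2 at an adjusted p below 0.05 (edgeR's quasi-likelihood test, adjusted over all genes tested). In rEEOs compared to rBMSCs, 21 of the 147 members (14.3%) were called higher and 14 (9.52%) lower. Among all genes tested 16.3% were called higher and 13.3% lower, so the members were called at shares close to and somewhat below the background. At adjusted p alone, 44 members (29.9%) were higher and 53 (36.1%) lower, beside 33.3% and 30.2% of all genes. Scaled by library size only, 63 were higher and 33 lower, so the balance between the directions depended on the scaling. Most members moved little. The median absolute log2 fold change was 0.77 for the members and 0.99 for all genes, and 86 members (58.5%) stayed under 1 where 50.4% of all genes did. In bulk RNA, a smaller number of cells of a type and less RNA per cell cannot be told apart.

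**Figure D1:**
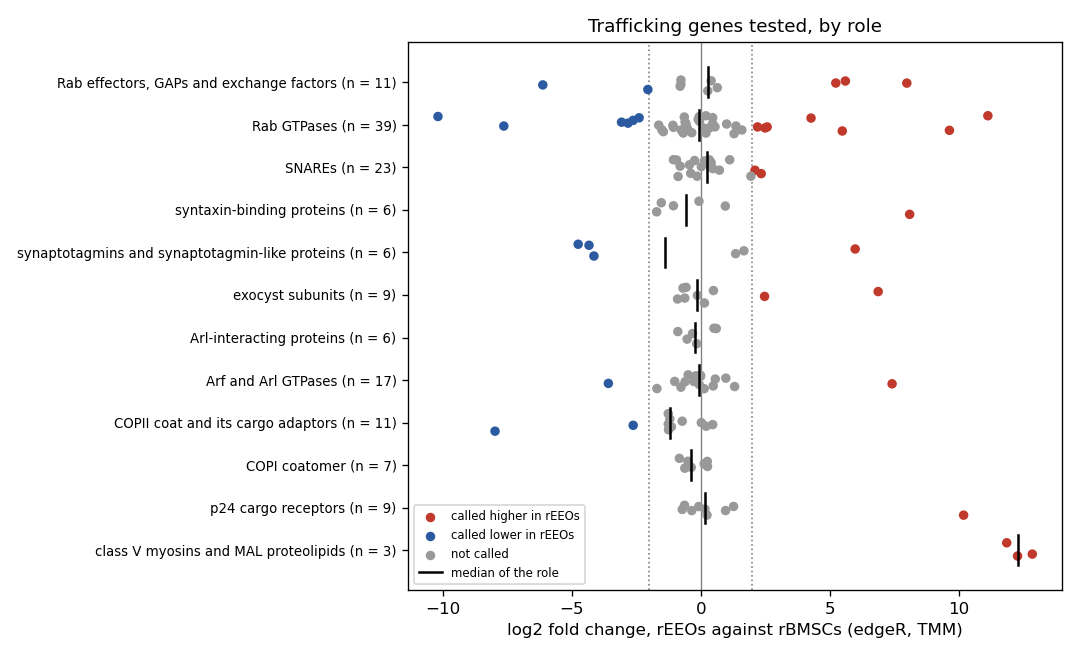
Log2 fold change of the 147 members tested, rEEOs against rBMSCs, with 1 point per gene in the row of its role. Red and blue points were called higher and lower, black bars are role medians, and dotted lines mark 2 and -2. Fitted values of genes without counts in a group depend on the prior count. The COPII row lies mostly to the left of 0, with a median of -1.20, and the 3 points of the Myo5b and MAL row lie at 11.85 or above.

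The genes called higher included several of apical recycling and apical delivery. Rab25, an epithelial relative of Rab11a that directs vesicles from recycling endosomes, had 0.73, 0.11 and 0.38 TPM in the rBMSCs and 305.61, 266.4 and 249.14 TPM in the rEEOs. The groups were far apart, and the log2 fold change was 9.63 (SE 0.41, adjusted p = 1.13e-05). Rab11a, the widely expressed member of the same set, had 59.79, 60.87 and 59.94 TPM in rBMSCs and 144.18, 125.23 and 119.47 TPM in rEEOs. Its log2 fold change of 1.36 (SE 0.14, adjusted p = 0.000255) was past the test but not past the fold threshold. Within the set of Rab11a and Rab25, Rab25 thus took 0.180% to 1.21% of the summed TPM in rBMSCs and 67.6% to 68.0% in rEEOs, while the set's total went from 60.3 to 61.0 TPM up to 369 to 449.8 TPM. The share of Rab25 was nearly the same in all 3 rEEOs libraries, although replicate 1 had the highest level of both genes. Rab11b, which completes the set, was not analysed here.

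Of the Rab11 effectors held, Rab11fip1 and Rab11fip4 were called higher, while Rab11fip2 (-0.80, adjusted p = 0.188) and Rab11fip5 (0.40, adjusted p = 0.0573) did not pass and Rab11fip3 fell by 0.77 on the log2 scale (adjusted p = 0.0419). The adjusted p of Rab11fip3 was 0.0919 to 0.119 when rBMSCs replicate 1, 2 or 3 or rEEOs replicate 2 or 3 was left out. Rab11fip1, an effector that binds Rab11 proteins and Rab25, had 0.22, 0.12 and 0.2 TPM in rBMSCs and 69.97, 22.25 and 31.35 TPM in rEEOs, a log2 fold change of 7.98 (SE 0.43, adjusted p = 2.3e-05). Myo5b, the myosin Vb motor that carries Rab11 vesicles, had 1 count over the 3 rBMSCs libraries. Its levels in the rEEOs were 38.6, 8.41 and 11.65 TPM, and the ratio of the groups was 5050 with a counting interval of 906 to 199473. Exoc6, the exocyst subunit related to yeast Sec15 that binds Rab11, had 0.19, 0.42 and 0.24 TPM in rBMSCs and 40.9, 25.37 and 22.78 TPM in rEEOs, a log2 fold change of 6.87. Rab3ip (Rabin8), the exchange factor that activates Rab8, had 1.16, 0.96 and 0.84 TPM against 59.35, 36.27 and 42.07 TPM, with a log2 fold change of 5.60 (SE 0.17). In Rab11fip1, Myo5b, Exoc6 and Rab3ip each rEEOs library was above each rBMSCs library. Rab8a itself had 62.37 to 66.61 TPM in rBMSCs and 39.67 to 67.6 TPM in rEEOs and was not past the test (log2 fold change -0.10, adjusted p = 0.488). Its paralog Rab8b was called lower, at -2.39 (adjusted p = 0.00709), a call lost at -1.99 when scaled by library size only.

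Fusion genes of the apical surface were also higher. Stx3, the apical syntaxin, had 7.87, 5.36 and 6.42 TPM in rBMSCs and 27.18, 19.17 and 17.11 TPM in rEEOs. The log2 fold change of Stx3 was 2.10 (SE 0.18, adjusted p = 0.000129), and lay below the threshold on the log2 TPM scale (1.54 and 1.66 at pseudocounts of 1 and 0.1). Stxbp2 (Munc18-2), which binds Stx3 and prepares it for fusion, had 0.36, 0.24 and 0.3 TPM in rBMSCs and 85.28, 55.69 and 64.93 TPM in rEEOs. The log2 fold change of Stxbp2 was 8.09 (SE 0.17), and Stxbp6 was at 0.95 (adjusted p = 0.0150, and 0.0605 without rBMSCs replicate 2). Stxbp6 did not pass on the log2 TPM scales either (limma adjusted p = 0.471 and 0.477), and its groups overlapped in TPM. Mal and Mal2 encode membrane proteolipids of apical transport and transcytosis. Mal had no counts in rBMSCs and 26.52, 18.23 and 28.28 TPM in rEEOs, at least 206-fold higher against a floor of 3 counts per library. Mal2 had 1 count in all in rBMSCs and 188.94, 59.56 and 87.02 TPM in rEEOs, a ratio of 10047 with an interval of 1803 to 396816. Of the 3 organoid libraries, replicate 1 was the highest for Mal2 and Myo5b. These intervals and bounds cover counting error only.

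**Figure D2:**
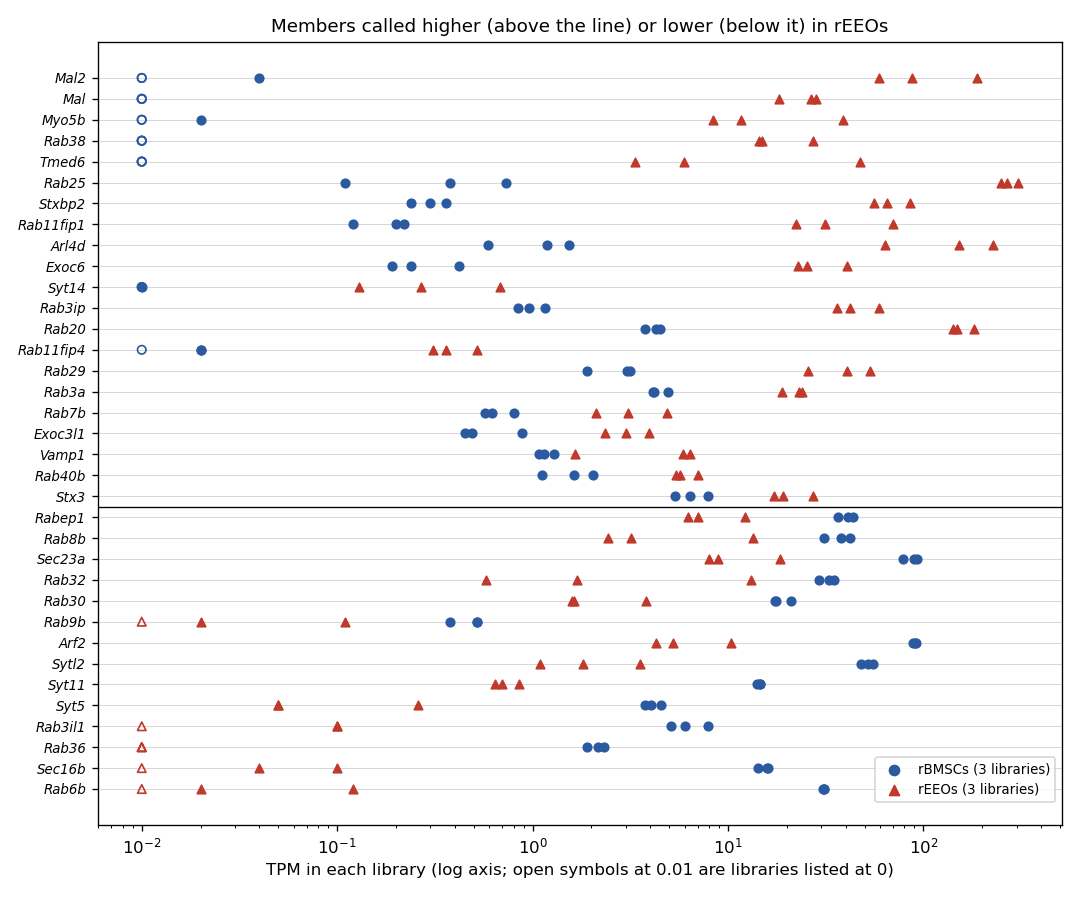
TPM of the 35 called members in each of the 6 libraries, on a log axis, with circles for rBMSCs and triangles for rEEOs. Open symbols at 0.01 are libraries listed at 0, and the line parts the 21 members called higher from the 14 called lower. In the rEEOs, Tmed6, Rab32 and Rab8b had 1 library well above the other two.

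Promoters of Rab25 and Stxbp2 are shown because both genes had fewer than 1 TPM in every rBMSCs library and at least 55.69 TPM in every rEEOs library, and both hold the E-box CAGGTG. These are the 250 bases before the annotated start, from RefSeq on GRCr8, written 5′ to 3′ along the gene, with the E-box in capitals on either strand (CACCTG is its reverse complement).
Rab25 (chr2:176304222-176304471, minus strand): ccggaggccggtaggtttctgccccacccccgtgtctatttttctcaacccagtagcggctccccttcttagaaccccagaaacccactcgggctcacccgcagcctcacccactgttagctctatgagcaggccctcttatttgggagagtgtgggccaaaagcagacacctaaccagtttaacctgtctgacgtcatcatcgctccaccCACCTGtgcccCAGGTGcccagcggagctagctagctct
Stxbp2 (chr12:6487076-6487325, plus strand): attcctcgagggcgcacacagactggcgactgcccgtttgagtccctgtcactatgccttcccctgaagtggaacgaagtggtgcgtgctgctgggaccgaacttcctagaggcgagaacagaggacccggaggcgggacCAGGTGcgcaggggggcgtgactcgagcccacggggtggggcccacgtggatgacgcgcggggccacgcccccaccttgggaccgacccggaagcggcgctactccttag
The Rab25 window holds the E-box at 2 places and the Stxbp2 window at 1.

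A promoter was matched for 16 of the 21 members called higher, 10 of the 14 called lower and 95 of the 112 tested and not called. The E-box CAGGTG, which ZEB and SNAIL repressors are known to bind, was found in 7 of the 16 (43.8%), in 1 of the 10 and in 11 of the 95 (11.6%), beside 15.6% of all 27457 promoters. The 7 were Exoc6, Mal, Rab25, Stxbp2, Syt14, Tmed6 and Vamp1. Of the 8 COPII members lower at adjusted p, 6 had a matched promoter, and 2 of these 6 (33.3%) held the E-box. The other 8 letter strings searched, also on both strands, gave the following shares for members called higher and for all promoters. The cyclic AMP element TGACGTCA was in 18.8% (3 genes) and 1.70%, beside none of the members called lower and 3.16% of those not called. The GC box GGGCGG was in 68.8% and 32.4%, and the KLF string GGGTGG in 43.8% and 26.6%. Members called lower held GGGCGG in 7 and GGGTGG in 5 of their 10 promoters, so neither set the higher members apart. The string CCACG of the ER stress element was in 37.5% and 28.0%, beside 51.6% of the members not called, the ETS core CCGGAAG in 12.5% and 7.74%, the AP-1 site TGANTCA in 6.25% and 6.36%, and TATAAA in 6.25% and 13.1%. The Grainyhead-like site AACCNGGTT was in none of the members' windows and in 0.295% of all. With 16 promoters, 1 gene moves a share by 6.25 points. The median GC content was 57.6% for the members called higher, 61.6% for those called lower, 62.8% for those not called and 52.0% for all promoters. Matches describe letters in these windows and were not tested against binding.

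Among the 39 Rab GTPases tested, 7 (17.9%) were called higher and 6 (15.4%) lower, close to the 16.3% and 13.3% of all genes. At adjusted p, 12 (30.8%) were higher and 16 (41.0%) lower, beside 33.3% and 30.2% of all genes. Rab1a, which serves ER to Golgi transport, had the highest mean level, with 340.2 to 366.24 TPM in rBMSCs and 289.52 to 430.26 TPM in rEEOs. Its log2 fold change was 0.20 (adjusted p = 0.173), and the groups overlapped. Rab20, an endosomal and phagosomal Rab, had 3.76, 4.27 and 4.49 TPM in rBMSCs and 181.11, 141.5 and 148.87 TPM in rEEOs, a log2 fold change of 5.48 (SE 0.16, adjusted p = 4.59e-06). Rab29, which acts with the kinase LRRK2 at the Golgi and lysosomes, had 3.14, 3.05 and 1.89 TPM against 25.6, 53.16 and 40.47 TPM (log2 fold change 4.27). Rab38, a Rab of lysosome-related organelles, had no counts in rBMSCs and 14.38, 27.38 and 15 TPM in rEEOs, at least 92.6-fold higher. After Rab25, Rab20 therefore had the highest level in rEEOs of the Rabs called higher.

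The Rabs called lower included Golgi Rabs and a relative of a late endosomal Rab, while Rab29, also of the Golgi, was called higher. Rab7b was called higher too (log2 fold change 2.49, adjusted p = 0.000576), a call lost at 1.34 on the log2(TPM + 1) scale. Rab6b, a Golgi Rab best known from neurons, had 31.16, 30.78 and 31.11 TPM in rBMSCs and 0, 0.02 and 0.12 TPM in rEEOs, and its level in rBMSCs was higher by a ratio of 1315 with an interval of 449.8 to 6375. Its broadly expressed paralog Rab6a fell by 0.52 on the log2 scale (adjusted p = 0.00958, and 0.0555 without rBMSCs replicate 3). Neuronal markers moved alongside, with a summed level of 189 to 198 TPM in rBMSCs and 0.110 to 0.330 TPM in rEEOs, nearly all of it Stmn2. Whether that bears on Rab6b was not tested. Rab30, a Golgi Rab, had 17.34, 17.68 and 21.14 TPM against 1.63, 3.81 and 1.59 TPM (log2 fold change -2.82). Rab36 had 1.9 to 2.31 TPM in rBMSCs and no counts in rEEOs, at least 8.01-fold lower. Rab9b, a relative of the late endosomal Rab9a, had 14 to 21 counts a library in rBMSCs and 0 to 5 in rEEOs, and its call was lost without rBMSCs replicate 1 (adjusted p = 0.0509), rBMSCs replicate 2 (0.0543) or rEEOs replicate 2 (0.0530). Rab32 had 32.82, 29.38 and 34.82 TPM against 13.13, 0.58 and 1.69 TPM, and its adjusted p of 0.0394 became 0.0832, 0.0841, 0.0878 and 0.118 without rBMSCs replicates 1, 2 and 3 and rEEOs replicate 3.

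Rab3 and Rab27 proteins dock secretory granules, and of the members tested Rab3a, Rab3d and Rab27a were higher at adjusted p and Rab27b was not. Rab3d, the non-neuronal Rab3, had 38.3 to 44.21 TPM in rBMSCs and 38.91 to 77.42 TPM in rEEOs and rose by 0.55 on the log2 scale (adjusted p = 0.0277), although the groups overlapped in TPM. Rab3d no longer passed without rBMSCs replicate 1, 2 or 3 (adjusted p = 0.109, 0.0864 and 0.0668) or on the log2 TPM scales (0.392 and 0.394). Rab3a, the synaptic vesicle Rab, had 4.11, 4.92 and 4.19 TPM against 23.83, 22.98 and 18.81 TPM and was called higher (log2 fold change 2.57, adjusted p = 0.000143). Rab3a took 8.66% to 11.1% of the Rab3 set in rBMSCs and 23.2% to 36.3% in rEEOs, with Rab3d the larger part in all 6 libraries. Rab3c was not analysed here. Rab3b had 1 count in all in rBMSCs and 7 to 16 a library in rEEOs and was not tested. Rab27a had 4.18, 4.05 and 5.06 TPM against 15.7, 11.02 and 7.67 TPM (log2 fold change 1.59, adjusted p = 0.00117). Rab27b had 4.85 to 6.05 TPM in rBMSCs and 17.48, 3.65 and 3.72 TPM in rEEOs. Its log2 fold change of 0.46 (adjusted p = 0.531) rested on rEEOs replicate 1, without which it was -0.60 (adjusted p = 0.0325).

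Of the 11 Rab partners, 3 (27.3%) were called higher and 2 (18.2%) lower, beside 16.3% and 13.3% of all genes. Rab11fip5 had the highest mean level among them. Rab11fip4 was called higher on 24 to 37 counts a library in rEEOs and at most 1 in rBMSCs, with a ratio of 44.3 and an interval of 12.3 to 366. Rab3il1, a relative of Rab3ip that also acts as an exchange factor, went the other way, from 7.95, 6.02 and 5.14 TPM in rBMSCs to 0, 0.1 and 0.1 TPM in rEEOs. Rab3ip and Rab3il1 were therefore opposite in the 2 cell types. Rabep1 (rabaptin-5), an effector of early endosomal Rab5, had 43.52, 36.66 and 41.38 TPM against 12.24, 6.22 and 7.06 TPM. Its log2 fold change of -2.05 lay at the threshold and was -1.94 without rEEOs replicate 2 and -1.67 when scaled by library size only.

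Few SNAREs passed the fold threshold. Of 23 tested, 2 (8.70%) were called higher and none lower, beside 16.3% and 13.3% of all genes. At adjusted p, 7 (30.4%) were higher and 5 (21.7%) lower, beside 33.3% and 30.2% of all genes. Besides Stx3, the call was for Vamp1, a vesicle SNARE, with 1.15, 1.28 and 1.08 TPM against 1.64, 6.39 and 5.86 TPM (log2 fold change 2.34, adjusted p = 0.0173). That call was lost when any of the rBMSCs replicates was left out (adjusted p = 0.0590, 0.0540 and 0.0614), and also without rEEOs replicate 2 (log2 fold change 1.98) or 3 (adjusted p = 0.0573). Vamp8, the endobrevin of apical and regulated exocytosis, had 199.71, 179.65 and 184.47 TPM in rBMSCs and 712.49, 350.37 and 601.54 TPM in rEEOs. Its log2 fold change of 1.94 (SE 0.24, adjusted p = 0.000699) lay just under the threshold, and passed it at 2.12 without rEEOs replicate 2 and at 2.32 when scaled by library size only. The TPM of Vamp8 overstates its reads next to other genes. It rested on 52 to 60 counts a library in rBMSCs and 142 to 256 in rEEOs, and each TPM stood for 0.275 reads in rBMSCs replicate 1, where the median gene had 23.2. Vamp3, which serves recycling endosomes, had 106.42, 108.48 and 112.88 TPM against 58.15, 36.54 and 39.9 TPM and fell by 1.06 on the log2 scale (adjusted p = 0.000332). Vamp8 took 62.0% to 65.2% of the summed TPM of Vamp3 and Vamp8 in rBMSCs and 90.6% to 93.8% in rEEOs, shares that carry this limit. Vamp2 was not analysed here.

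Among the target SNAREs of the cell surface, the share of Stx3 was higher and that of Stx2 lower in rEEOs. Stx4, the syntaxin known from basolateral membranes, had 105.03 to 107.61 TPM in rBMSCs and 66.54 to 74.45 TPM in rEEOs and was the largest of the 4 syntaxins described in each library, at 60.7% to 69.3% of their sum. On the TMM scale its log2 fold change was -0.24 (adjusted p = 0.359). Stx3 made up 3.37% to 4.68% of the sum in rBMSCs and 15.8% to 24.8% in rEEOs, and Stx2 had 27.8% to 28.3% and 10.9% to 18.0%. The log2 fold change of Stx2 was -0.94 and did not pass (adjusted p = 0.0705), and that of Stx1a was 0.25 (adjusted p = 0.595). Within the SNAP-25 family the ranges of the shares overlapped between the groups. Snap23, the widely expressed member, took 46.4% to 48.7% in rBMSCs and 44.5% to 50.9% in rEEOs. On the log2 scale it was at 0.33 (adjusted p = 0.0460), and it no longer passed when any library but rEEOs replicate 1 was left out (0.0511 to 0.157). Snap29 (0.34) and Snap47 (0.14) were not past the test, and neuronal Snap25 had at most 0.06 TPM.

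**Figure D3:**
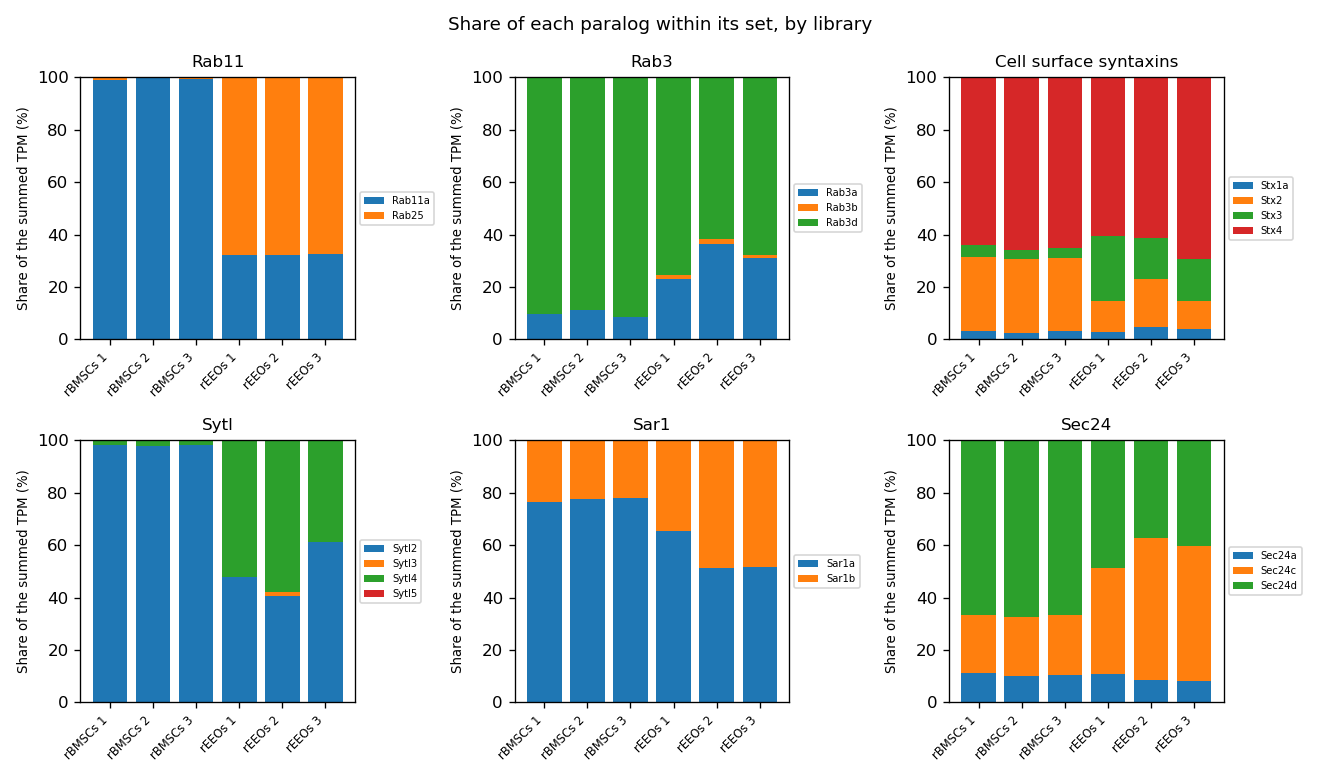
Share of the summed TPM that each paralog took within its set, in percent, as 1 stacked bar per library for 6 sets. In the Rab11 set Rab25 went from at most 1.21% in rBMSCs to at least 67.6% in rEEOs. In the Sytl set Sytl2 went from at least 97.6% to at most 61.1%, as the total of that set fell from 49.4 to 56.1 TPM to 2.69 to 7.40 TPM.

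Synaptotagmins and synaptotagmin-like proteins, calcium sensors and Rab27 effectors of exocytosis, had 6 members tested. At adjusted p, 3 of the 6 were higher and 3 lower, beside 33.3% and 30.2% of all genes. Of the same 6, 1 was called higher and 3 lower, beside 16.3% and 13.3% of all genes. Sytl2 (Slp2-a), a Rab27 effector, was the main one in rBMSCs, with 51.96, 48.2 and 55.01 TPM, and had 3.55, 1.09 and 1.82 TPM in rEEOs (log2 fold change -4.14, SE 0.46, adjusted p = 0.00041). Syt11, a synaptotagmin that does not bind calcium, had 14.61, 14.63 and 14.12 TPM against 0.85, 0.64 and 0.7 TPM (-4.33). Syt5 fell by 4.75 on the log2 scale, from 61 to 71 counts a library to 1 to 5. Syt14 was called higher on 13 to 54 counts a library in rEEOs and 1 count in all in rBMSCs, a ratio of 85.1 with an interval of 15.3 to 3361. Sytl4 (granuphilin), also a Rab27 effector, rose by 1.35 (adjusted p = 0.0105, and 0.146 to 0.157 on the log2 TPM scales) and took 38.9% to 58.0% of the Sytl set in rEEOs. Sytl1 was not analysed here. The summed TPM of the role was 70.6 to 76.7 in rBMSCs and 21.3, 8.41 and 10.5 in rEEOs. Among the untested members, Syt12 and Syt16 had no counts in rBMSCs and 9 to 53 and 7 to 37 counts a library in rEEOs.

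The exocyst, which tethers secretory vesicles to the plasma membrane, had 9 subunits and relatives tested. Apart from Exoc6, Exoc3l1, a relative of Exoc3, was called higher at 0.45 to 0.88 TPM against 2.34 to 3.96 TPM (log2 fold change 2.47, adjusted p = 0.0037). On the log2(TPM + 1) scale it was at 1.34, under the threshold. Exoc3 itself had the highest mean level of the role and fell by 0.57 on the log2 scale (adjusted p = 0.00441, and 0.186 when scaled by library size only). Exoc1 was at 0.49 (adjusted p = 0.0184) with overlapping groups, and no longer passed without rBMSCs replicate 1, 2 or 3 (0.0938, 0.0623 and 0.0702). Exoc7 was at -0.69 (adjusted p = 0.0144), and at 0.0505 and 0.0666 without rBMSCs replicate 1 or 3. Exoc6b, the paralog of Exoc6, had 11.87 to 14.02 TPM in rBMSCs and 13.83, 4.44 and 4.96 TPM in rEEOs and was not past the test (-0.62, adjusted p = 0.129). In rBMSCs Exoc6b was above Exoc6 in each library, and in rEEOs Exoc6 was above Exoc6b in each.

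Of 17 Arf and Arl GTPases tested, 1 (5.88%) was called in each direction, beside 16.3% called higher and 13.3% lower among all genes. Arl4d, a GTPase of the plasma membrane, had 1.53, 0.59 and 1.18 TPM in rBMSCs and 63.81, 153.04 and 227.91 TPM in rEEOs, a log2 fold change of 7.41 (SE 0.77, adjusted p = 0.000294). Here replicate 1 was the lowest of the organoid libraries. Arf2, a class I Arf, had 88.13, 90.25 and 91.96 TPM against 10.31, 4.26 and 5.23 TPM (log2 fold change -3.58, SE 0.22). It took 7.97% to 8.52% of the 4 Arfs held in rBMSCs and 0.563% to 1.22% in rEEOs. Arf4, the most abundant member of the role, took 47.5% to 51.9% in all libraries. In TPM it was lower in rEEOs with no overlap (503.17 to 540.75 against 348.74 to 439.68), whereas its log2 fold change on the TMM scale was -0.19 (adjusted p = 0.269) and was 0.19 when scaled by library size only, so no direction held for it. Arf5 (-0.06) and Arf6 (0.13) were not past the test. No call fell on the 6 Arl-interacting proteins, which ran from -0.89 (Arl2bp) to 0.60 (Arl6ip4). The highest of these in mean TPM, Arl6ip5, was at -0.16 on the log2 scale and not past the test (adjusted p = 0.360).

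The COPII coat was the role most often lower in rEEOs. Of its 11 tested members, 8 (72.7%) were lower at adjusted p, beside 30.2% of all genes, 1 was higher, and the median log2 fold change was -1.20 against 0.08 for all genes. The summed TPM was 1189 to 1239 in rBMSCs and 689, 424 and 466 in rEEOs. Under all alternatives but a test against a fold change of 2, which left 3, either 7 or 8 members were lower. Leaving out any library kept 7 or 8.

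Sec23a, the inner coat subunit that with Sec24 forms the cargo-selecting layer, had 92.84, 78.21 and 89.22 TPM in rBMSCs and 18.36, 8.04 and 8.91 TPM in rEEOs, a log2 fold change of -2.62 (SE 0.17, adjusted p = 4.09e-05). Sec16b, a scaffold of ER exit sites, had 15.8, 14.2 and 16 TPM against 0.04, 0 and 0.1 TPM (log2 fold change -7.97, SE 0.61), whereas its paralog Sec16a was at 0.02 (adjusted p = 0.937). Sec13, an outer coat subunit and the most abundant of the role, had 329.43, 341.24 and 335.04 TPM against 159.17, 101.72 and 125.34 TPM (-1.14, adjusted p = 0.000381). Its outer coat partner Sec31a fell by 1.20, and Mia3, which loads procollagen into carriers, fell by 1.26 (adjusted p = 0.0072), both on the log2 scale. In every one of these genes except Sec16a the groups did not overlap.

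Paralogs of the coat split. Sar1a, the GTPase that starts coat assembly, had 257.97 to 265.36 TPM in rBMSCs and 78.81 to 122.52 TPM in rEEOs (-1.25, adjusted p = 0.000247). Sar1b, which is needed for chylomicron export in the intestine, had 74.2 to 80.92 TPM and 65.16 to 76.4 TPM and was not past the test (0.21, adjusted p = 0.418), and Sar1a's share of the pair went from 76.6% to 77.9% down to 51.1% to 65.3%. Sec24d and Sec24a, cargo adaptors, fell by 1.26 (adjusted p = 0.00523) and 0.72 (adjusted p = 0.0133, and 0.0585 for Sec24a without rBMSCs replicate 1). Sec24c was the member that rose, by 0.46 (SE 0.11, adjusted p = 0.0120). Sec24c no longer passed at adjusted p when any of the rBMSCs replicates was omitted (0.0663, 0.0581 and 0.0614) or on the log2 TPM scale. Sec24d made up 66.6% to 67.2% of the 3 Sec24 paralogs held in rBMSCs and 37.3% to 48.6% in rEEOs, and Sec24c at most 22.8% and 40.4% to 54.2%. Sec31b, the paralog of Sec31a, was too low to be tested in the fit reported, at no more than 1.34 TPM in any library. It had 2 to 3 counts a library in rBMSCs and 8, 65 and 68 in rEEOs. The ratio was 22.5 with an interval of 10.9 to 55.8, and the DESeq2 Wald test called it higher (adjusted p = 9.12e-05). Sec23b and Sec24b were not analysed here.

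**Figure D4:**
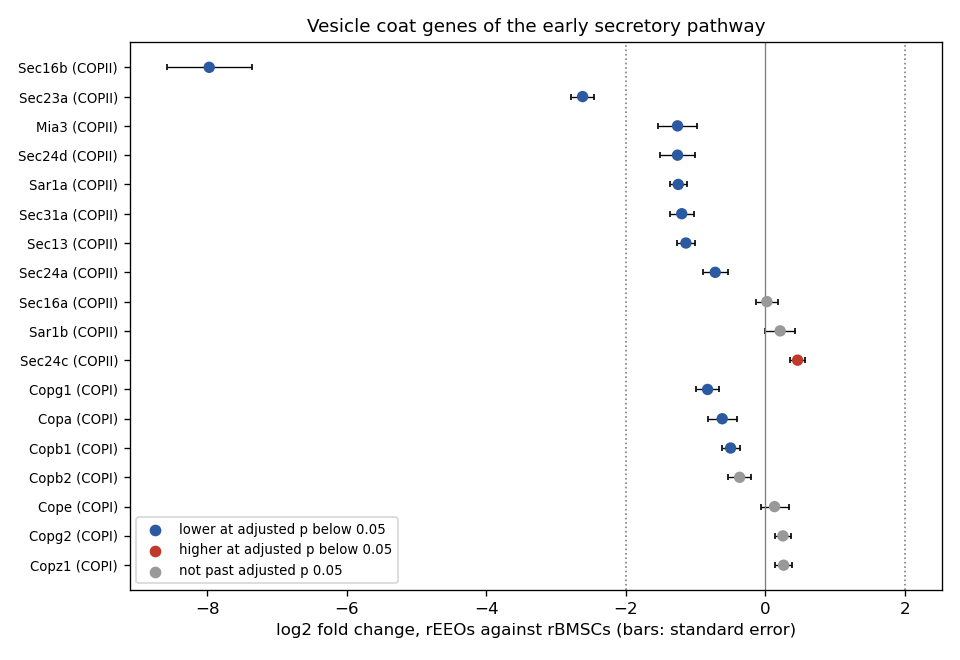
Log2 fold change of the 11 COPII and 7 COPI members tested, rEEOs against rBMSCs, with standard errors as bars and dotted lines at -2 and 2. Blue points were lower and red points higher at an adjusted p below 0.05, and grey points did not pass. COPII points run from -7.97 (Sec16b) to 0.46 (Sec24c), and COPI points from -0.83 (Copg1) to 0.26 (Copz1).

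COPI, the coat of Golgi to ER retrieval, moved less. Of 7 subunits, 3 (42.9%) were lower at adjusted p, beside 30.2% of all genes. They were Copg1 (-0.83, adjusted p = 0.00553), Copa (-0.62, adjusted p = 0.0425) and Copb1 (-0.50, adjusted p = 0.0161). None was called, and none was lower when scaled by library size only. Without rBMSCs replicate 1, 2 or 3 only Copg1 passed. Cope, the most abundant, had 206.91 to 227.3 TPM in rBMSCs and 180.96 to 218.96 TPM in rEEOs, with overlap. The p24 receptors, which select cargo between ER and Golgi, were mixed. At adjusted p, 3 of 9 (33.3%) were higher and 2 (22.2%) lower, beside 33.3% and 30.2% of all genes. Tmed10, the most abundant, had 373.15 to 403.06 TPM against 277.29 to 514.4 TPM (log2 fold change 0.16, adjusted p = 0.359). Tmed6 was called higher from no counts in rBMSCs to 5.97, 3.35 and 47.48 TPM, and 1 library, rEEOs replicate 3, held most of its 24 to 338 counts. Tmed6 was at least 48.3-fold higher, and DESeq2 gave no adjusted p for it.

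Other genes of the same pathways, taken from 4 lists, were counted in the same fit. Among all genes tested, 16.3% were called higher and 13.3% lower, and 33.3% and 30.2% were higher and lower at adjusted p. Of 18 SNARE partners (Bet1, Gosr and other SNAREs named outside the rule, and their regulators) none was called, with 2 higher and 5 lower at adjusted p. Of 23 tethers none was called, with 9 higher and 4 lower. Of 29 Rab regulators and effectors tested, 10 were called higher and 1 lower, in a list drawn up with earlier results of these data known. Unc13d (Munc13-4), a Rab27 effector that primes secretory lysosomes, had 0.29, 0.14 and 0.23 TPM in rBMSCs and 23.16, 25.45 and 20.48 TPM in rEEOs (log2 fold change 6.97, SE 0.33, adjusted p = 1.55e-05). Mlph (melanophilin), which links Rab27a to a class V myosin, had no counts in rBMSCs and 25.17, 15.41 and 10.34 TPM in rEEOs. Rph3al, an effector of Rab3 and Rab27, likewise had none and 12.36, 6.13 and 8.85 TPM. These 3 effectors of Rab27 and Rab3, named after their values were seen, were higher in every organoid library than in any rBMSCs library. Of the Rab27 effectors among the members, Sytl2 was lower, and Sytl4 was higher at adjusted p with groups that overlapped in TPM. Rin3, an exchange factor of Rab5, was the one called lower, with 23.09, 21.61 and 20.78 TPM against 0.52, 0.09 and 0.16 TPM.

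Of 32 genes of ER export, retrieval and Golgi adaptors, 2 were called higher and 1 lower, beside 16.3% and 13.3% of all genes. All 3 are subunits of AP-1, the clathrin adaptor of the Golgi and endosomes. Ap1m2, the epithelial medium chain of AP-1B, which sorts basolateral cargo, had no counts in rBMSCs and 80.19, 43.64 and 56.43 TPM in rEEOs. Ap1s3 had 1.44, 0.42 and 0.6 TPM against 60.45, 26.07 and 34.29 TPM (log2 fold change 6.10, adjusted p = 4.23e-05). Ap1s2 was the reverse, with 29.74, 23.68 and 27.85 TPM against 1.63, 0.21 and 1.3 TPM (-4.40, adjusted p = 0.000639). The small chains of AP-1 thus differed in opposite directions between rEEOs and rBMSCs.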

How the data were processed

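Bulk mRNA of 3 rEEOs and 3 rBMSCs libraries was sequenced on a BGISEQ instrument as single-end reads. The authors trimmed the reads (Trim Galore), aligned them with Bowtie2 2.2.5 and quantified genes with RSEM. The submitters' notes name the build Rnor_6.0. The deposited expected counts are RSEM estimates, of which 7.3% to 8.4% per library were not whole, and they were rounded. The deposited TPM values, scaled by the authors for gene length and depth, sum over the genes held here to 81.3% to 82.7% of the full TPM scale and were used for levels and shares only. The last row of the table held here is incomplete after its per-sample values. Columns of FPKM and group means were not used.

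The 10607 genes that reached 10 counts in 3 or more libraries were fitted with edgeR 4.0.16 (quasi-likelihood test, TMM scaling, cell type as the only term, R 4.3.3), and p-values were Benjamini-Hochberg adjusted over all of them. Called genes had an absolute log2 fold change above 2 and an adjusted p below 0.05. The fit was tested on simulated data. Genes without counts in a group are given as a bound against 3 counts per library, and those with at most 3 counts in each library of that group as a ratio with an exact Poisson 95% interval, which departs from the bound first planned for both. Precision was limited by totals of 10457958 to 15421501 counts, at which 3 counts stood for 0.181 to 0.262 CPM.

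The members, roles, gene lists and markers were chosen with earlier results of these data known, and the promoter strings after the values were seen. Named were, in each role, the member with the highest mean TPM, up to 2 called members per direction (4 for Rabs, SNAREs and synaptotagmins) with the largest fold changes, and the genes of the paralog sets. Others named in the text, from the pathway lists too, were chosen after their values were seen. All 157 member symbols matched RefSeq (GRCr8), from which promoters were taken and no coordinates of the deposited build. Alternatives were DESeq2 1.42.0 (Wald test or size factors), library size only, other count minimums, limma 3.58.1 on log2(TPM + 1) or log2(TPM + 0.1), a test against a fold change of 2, a fold threshold of 1, a replicate block and leaving out each library. Some members counted within their roles are not reported here by name.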

Additional observations from a re-analysis of the deposited data

How the results depend on the processing

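Over the alternatives the members called higher numbered 15 to 27 and those called lower 11 to 19, apart from 31 called higher and 30 called lower when the threshold on the absolute log2 fold change was 1. Lower members at adjusted p were 33 when scaled by library size only, where the median of all genes moved from 0.08 to 0.46, and higher ones were 63. Leaving out 1 library gave 29 (without rBMSCs replicate 2) to 55 (without rEEOs replicate 1) members higher at adjusted p. Without rEEOs replicate 1 there were 61 lower, and without rBMSCs replicate 1 there were 40. The replicate numbers did not pair the libraries (correlation of deviations 0.17, 0.193 and -0.175), and the replicate block gave 21 and 14 called and 35 and 49 at adjusted p. Reversed log2 fold changes were 0.19 (Arf4), 0.31 (Arf5), 0.22 (Arl6ip5) and 0.13 (Stx4) with library size only. On the log2 TPM scales they were -0.14 (Arf6), -0.15 (Cope), -0.06 (Rab1a), -0.09 (Sar1b), -0.11 (Tmed10), -0.11 and -0.13 (Snap47) and -0.08 and -0.10 (Stx1a). Over left-out libraries Arf5 ran from -0.16 to 0.15, Cope from -0.02 to 0.33, Rab27b from -0.60 to 0.83 and Stx1a from -0.12 to 0.57. None of these was past the test in the fit reported. The cause was not tested. Tmed6 was given no adjusted p by DESeq2.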
